A study of Mus musculus with 15 samples.

Results

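The genes described here are 37 interferon response genes, chosen by symbol from a fixed list, out of 20418 gene symbols measured in whole mouse eyes by RNA-seq. All 37 were found in each of the 15 libraries' tables, with the transcript of highest mean read count standing for a gene. Genes were chosen by symbol, with earlier results of these data known. Measured counts entered directly only in the choice of the transcript that stands for a gene. The study asked how the transcription factor Egr1 bears on eyelid development in mice carrying an Egr1 knockout allele that came from C57BL/6 animals and was crossed for several generations onto BALB/c.

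The 7 groups were as follows. Newborn eyes were wild type (2 libraries) or labelled Egr1-/- (2 libraries), and adult eyes were wild type (1 library) or labelled Egr1-/- (2 libraries). Eyes taken at day 3 each gave a library of their own: 4 open and 2 closed eyes of the Egr1-/- mice E24, E29 and E32, and 2 closed eyes of the Egr1+/- littermate E28. E24 and E29 had 1 open and 1 closed eye each, E32 had 2 open eyes and E28 had 2 closed eyes. The labels do not say how many animals gave a newborn or adult library, and p-values for those groups thus rest on library-to-library spread that may be technical. The labels name both chemical fixation of eyes with their lids and storage in RNAlater, and do not say which eyes were fixed.

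Egr1 itself went against the labels. Levels are given as reads per length of transcript and per library size (RPKM), with library sizes scaled by edgeR's TMM factors (TMM-scaled RPKM). On this scale Egr1 stood at 15 and 19.7 in the newborn wild types and at 69.8 and 89.1 in the newborn libraries labelled knockout. It stood at 10.8 in the adult wild type and at 83.3 and 60 in the adult libraries labelled knockout. The day 3 eyes labelled knockout ranged from 51.0 to 119, and those of the heterozygote gave 32.3 and 35.9. Egr1 reads were therefore higher, not lower, under the knockout label at each age, and the groups are called "labelled knockout" throughout. How the allele alters the gene is not given in the sources used here, so reads from an altered transcript cannot be told apart from those of an intact one, nor from an exchange of labels. With exchanged labels, every genotype direction given here would be the reverse.

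Reads assigned to transcripts ranged from 20334849 to 43907093 per library. In lens markers 1 newborn library stood apart: they summed to 339 TMM-scaled RPKM in labelled-knockout replicate 1 and to between 46300 and 52100 in the other 3 newborn libraries. Newborn wild-type replicate 1 stood apart in another way. Its counted reads came to 0.756 of the library total implied by the authors' RPKM, against 0.995 to 1.12 in the other libraries. In adult labelled-knockout replicate 1, 3 corneal markers summed to 425, against 3990 and 6180 in the other adult libraries. Eyes are mixtures of tissues: in such bulk samples, fewer cells of a type and less RNA per cell cannot be told apart.

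Interferons are secreted proteins that alert cells to infection and damage. Alpha and beta interferons act through the receptor Ifnar1/Ifnar2 and the kinases Jak1 and Tyk2, which activate a complex that contains Stat2 and Irf9. This complex binds the interferon-stimulated response element, a repeat of GAAA-type letters, upstream of its target genes. Interferon gamma acts through Ifngr1/Ifngr2, and its targets carry the gamma-activated site. The induced genes encode sensors of viral nucleic acid, enzymes that block viral RNA, the ubiquitin-like protein Isg15, GTPases that attack intracellular microbes, and parts of the antigen-processing machinery. Epithelial cells of the ocular surface and tissue macrophages are among the cells that can mount this response.

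The sequences that carry this regulation were looked for in RefSeq promoters of build GRCm38.p6, 250 bases before to 50 bases after the start site. An entry was found for 29 of the 37 genes (none for Usp18, Oas2, Mx2, Dhx58, Rtp4, Zbp1, Parp9 and Parp14). The core GAAANNGAA, read on both strands (TTCNNTTTC on the other), was present in 17 of the 29 genes (58.6%), against 2638 of 27025 genes in the whole table (9.76%). In 9 of the 29 it occurred at least 2 times, as it did in 0.736% of all genes. The gamma-activated site TTCNNNGAA, which reads the same on both strands, was present in 7 of 29 (24.1%) and in 9.55% of all genes. The Egr1 site GCGTGGGCG (CGCCCACGC on the other strand) was found in 0 of 29 and in 0.707% of all genes. No match of 1 motif can be a match of another at the same position, but in Bst2 a gamma-activated site and an element core overlapped. A match is a description of letters and not evidence of binding.

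The promoters of 5 genes are shown, each as the 160 bases before the start site in the direction of the gene: a pair with 3 element cores in overlapping or close array whose genes were among the largest newborn differences, a GTPase with overlapping cores near its start, an Ifit gene with 3 cores whose difference did not pass, and the first of the 2 promoters listed for Irf1. Capitals mark the element core on either strand in the first 4 and the gamma-activated site in the last.
Ifit1 (chr19:34640729-34640888, + strand): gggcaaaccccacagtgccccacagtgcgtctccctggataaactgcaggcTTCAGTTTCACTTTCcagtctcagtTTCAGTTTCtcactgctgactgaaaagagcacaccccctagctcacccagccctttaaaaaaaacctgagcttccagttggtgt
Isg15 (chr4:156200819-156200978, - strand): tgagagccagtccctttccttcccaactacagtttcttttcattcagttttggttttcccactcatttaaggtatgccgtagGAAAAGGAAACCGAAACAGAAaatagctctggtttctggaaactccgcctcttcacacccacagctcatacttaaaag
Irgm1 (chr11:48871421-48871580, - strand): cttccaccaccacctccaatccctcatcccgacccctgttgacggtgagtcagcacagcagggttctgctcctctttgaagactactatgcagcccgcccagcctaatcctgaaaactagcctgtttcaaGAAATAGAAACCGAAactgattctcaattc
Ifit3 (chr19:34583369-34583528, + strand): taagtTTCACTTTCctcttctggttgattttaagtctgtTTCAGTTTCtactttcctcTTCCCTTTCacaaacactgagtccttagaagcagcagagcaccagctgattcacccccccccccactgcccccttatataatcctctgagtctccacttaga
Irf1 (chr11:53769854-53770013, + strand): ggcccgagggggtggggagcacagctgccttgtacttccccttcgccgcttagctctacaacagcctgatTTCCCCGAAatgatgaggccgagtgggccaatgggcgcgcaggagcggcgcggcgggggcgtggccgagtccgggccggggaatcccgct

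The Ifit1 cores began 109, 103 and 84 bases upstream of the start site, and those of Isg15 78, 72 and 66 bases upstream. In Irgm1 they began 30 and 24 bases upstream. The Ifit3 cores lay farther out, at 155, 121 and 102 bases. The gamma-activated site of Irf1, TTCCCCGAA, began 90 bases upstream. Irf7, which showed the largest newborn difference of the 37, had none of the 3 motifs in its window. One identity is uncertain: the deposited tables place the counted Isg15 transcript on chromosome 17, while RefSeq places the gene on chromosome 4, so the Isg15 counts may come from another copy. The other 36 genes lie on the same chromosome in both sources.

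**Figure D1:**
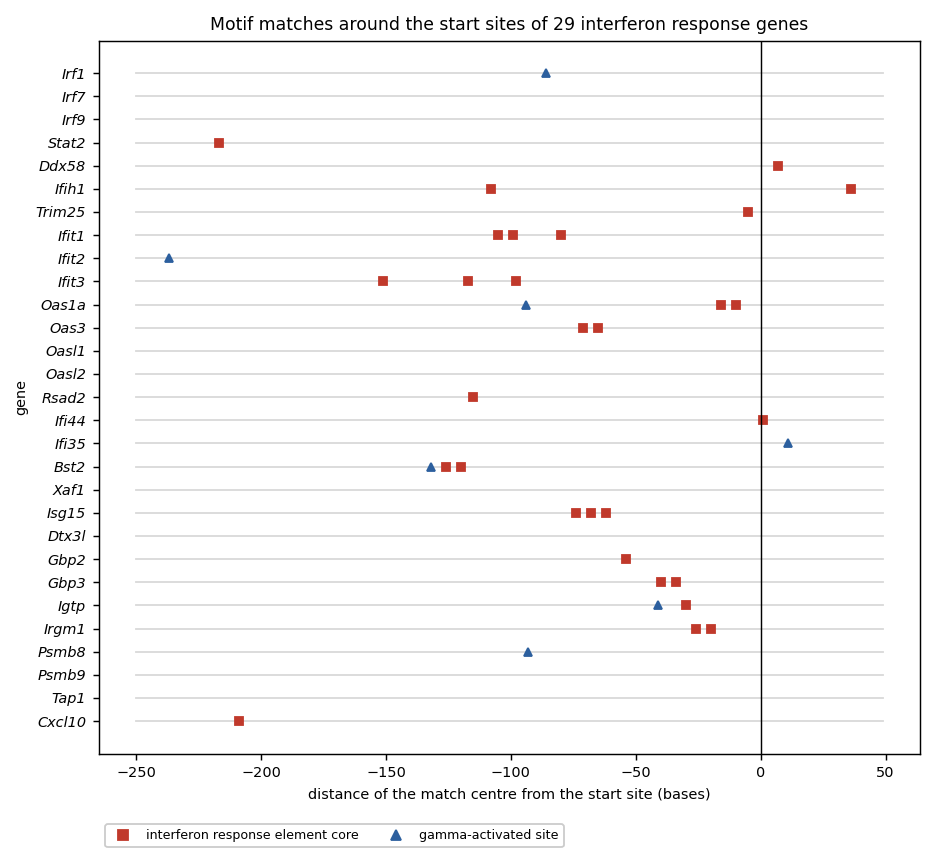
Distance of each motif match (centre, in bases) from the start site, for the 29 genes with a promoter entry; squares are cores of the interferon response element, triangles gamma-activated sites, and grey lines the searched window. Of the 29 genes, 17 have at least 1 core and 12 have none, Irf7 among the latter.

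Across the 15 libraries the genes differed widely in level. Mean levels ran from 0.208 TMM-scaled RPKM (Mx2, a dynamin-like antiviral GTPase) to 20.8 (Bst2, the tether that holds budding virus at the cell surface), with a median of 2.66 over the 37. Only 4 genes averaged under 1. Bst2 was followed by Irf1 (14.0), a transcription factor that is itself induced by interferon gamma, by Psmb8 (13.2), an immunoproteasome subunit, and by Trim25 (10.6), the ubiquitin ligase that activates the RNA sensor Ddx58. At the other end, Oas3 averaged 0.762 and Rsad2, which encodes viperin, 0.769.

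The groups differed in the level of the genes as a whole. The summed level of the 37 genes was 366 in the adult wild type and at most 299 in both adult labelled knockouts. It was 81.1 and 65.7 in the newborn wild types and 283 and 170 in the newborn labelled knockouts. Day 3 eyes ran from 60.5 in the closed eye of E24 to 180 in 1 open eye of E32. Gene by gene, an adult library was the highest of the 15 for 26 genes (the wild type for 18), a newborn labelled knockout for 10, and a day 3 eye for 1. That last gene was Cxcl10, the chemokine that draws activated T cells. All 3 adult libraries exceeded both newborn wild types for 32 of the 37, and all 8 day 3 eyes for 22. The shares of all genes in these orders were not counted, so these counts describe the 37 genes alone. The sum of newborn labelled-knockout replicate 1 (283) thus lay next to the adult libraries, and that of replicate 2 (170) next to the eyes of E32. No test was made between the day 3 eyes and the other libraries.

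**Figure D2:**
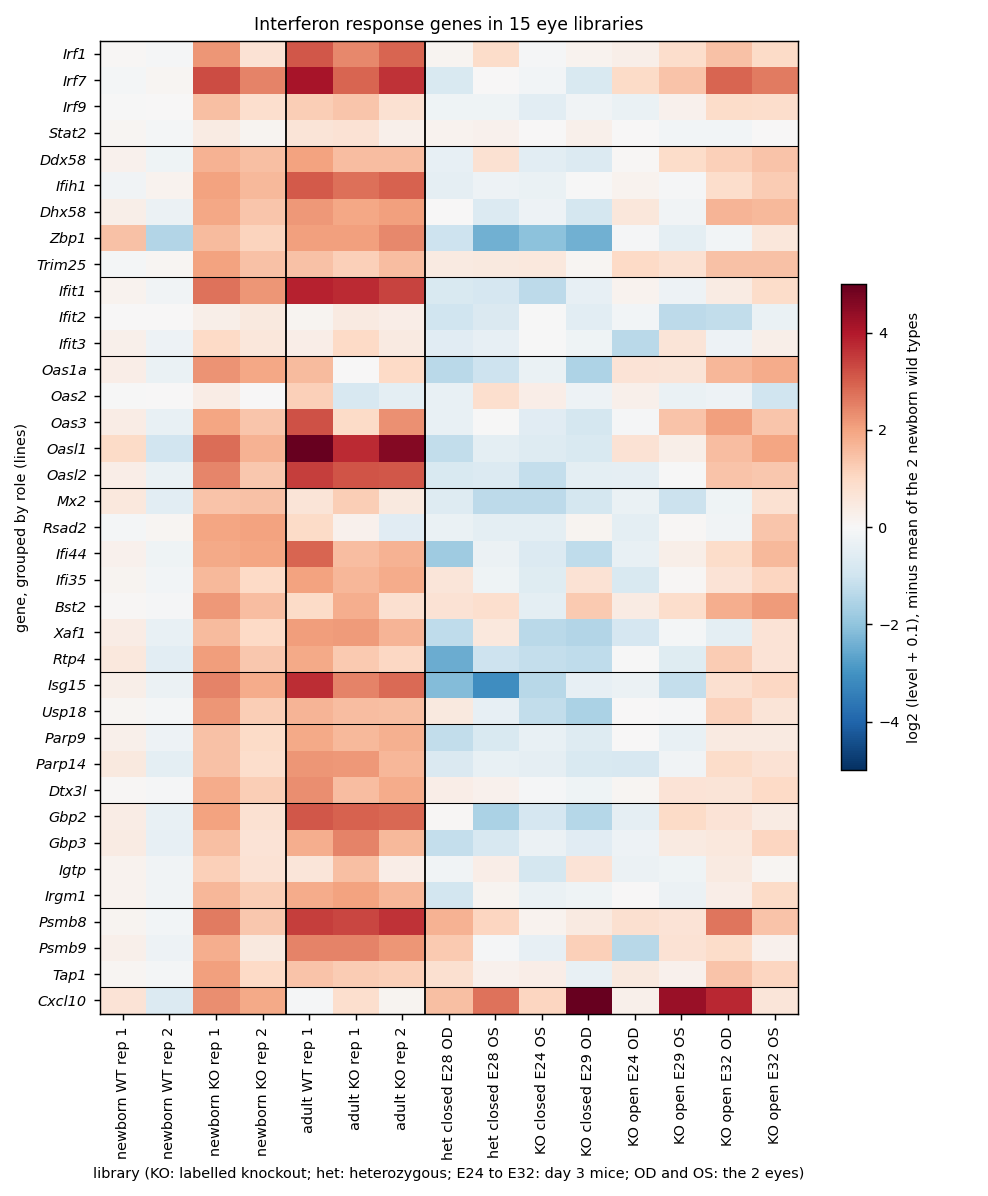
Level of each of the 37 genes (rows, grouped by role) in each library (columns), as log2 of TMM-scaled RPKM with 0.1 added, minus the mean of the 2 newborn wild types; red is higher, blue lower. The newborn labelled-knockout and adult columns are red for most rows, the closed day 3 eyes are near 0 or blue in most (Cxcl10 excepted), and both eyes of E32 are red in most rows.

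At birth the interferon response genes were higher under the knockout label. Of the 37, all tested, 25 rose and none fell by edgeR's quasi-likelihood test (Benjamini-Hochberg adjusted p under 0.05, all genes adjusted together). Over all 17592 genes tested, 14.6% rose and 9.38% fell, so that the share of these genes that rose was several times the background. Every one of the 37 log2 fold changes was positive (0.21 to 2.98), with a median of 1.67 against -0.07 over all genes. For 35 of the 37, both labelled knockouts lay above both wild types, an order held by 33.8% of all tested genes.

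Among the transcription factors, 3 of 4 rose. Irf7, the factor that amplifies interferon production, stood at 1.66 and 1.89 TMM-scaled RPKM in the wild types and at 17.9 and 10.4 in the labelled knockouts. Its log2 fold change was 2.98 ± 0.36 (SE; 7.87-fold; edgeR adjusted p = 0.0034). Irf1 was at 5.05 and 4.72 against 22.9 and 8.09, so that most of its difference came from replicate 1 (1.65 ± 0.45, edgeR adjusted p = 0.0381). Irf9, the DNA-binding partner of Stat2, rose by a log2 value of 1.22 ± 0.29. Stat2 gave 4.92 and 4.36 against 6.12 and 5.06 and did not pass (0.26 ± 0.21, edgeR adjusted p = 0.397).

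Of the 5 nucleic acid sensors and their ligase, 4 rose. Ddx58 (RIG-I), which detects viral RNA ends, was at 1.77 and 1.31 in the wild types and at 5.32 and 4.52 in the labelled knockouts (1.67 ± 0.20, edgeR adjusted p = 0.0034). Ifih1 (MDA5), the sensor of long double-stranded RNA, was at 0.345 and 0.473 against 1.95 and 1.44 (2.04 ± 0.26). Trim25 was at 4.69 and 5.37 against 20.3 and 14.2 (1.77 ± 0.24). Each of these 3 genes separated the groups with a wide gap. Dhx58 (LGP2), which modulates the other sensors, went from 0.710 and 0.443 to 2.46 and 1.64 (1.82 ± 0.35). Zbp1, a sensor of Z-form nucleic acid, did not pass: its wild types differed from each other (1.99 and 0.172) more than its labelled knockouts did (2.17 and 1.51).

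The Ifit and Oas families were split. Ifit1, which binds foreign RNA caps, was at 0.396 and 0.292 in the wild types and at 2.80 and 1.92 in the labelled knockouts (2.77 ± 0.31; 6.82-fold; edgeR adjusted p = 0.0033). Its neighbours in the family did not pass: Ifit2 was at 2.17 and 2.17 against 2.69 and 3.08, and Ifit3 at 1.95 and 1.35 against 3.32 and 2.46. Of the 5 oligoadenylate synthetase genes, whose products switch on an RNA-degrading enzyme or bind RNA, 3 rose. Oasl2 was at 1.41 and 0.845 against 6.42 and 2.96 (2.05 ± 0.40), and Oas1a at 0.763 and 0.434 against 3.10 and 2.51 (2.22 ± 0.48). Oas3 rose by 2.00 ± 0.58. Oasl1 had as large a log2 difference (2.21 ± 0.67) and just missed the threshold (edgeR adjusted p = 0.0531), while Oas2 was near level at 0.960 and 0.996 against 1.29 and 0.985. Genes of these families resemble each other in sequence, and reads shared between copies may have been split by the counting.

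Of the 7 other antiviral effectors, 6 rose. Bst2 went from 9.37 and 8.71 to 40.9 and 26.5 (1.89 ± 0.36, edgeR adjusted p = 0.0108). Rsad2 went from 0.440 and 0.531 to 2.20 and 2.25, with close replicates on both sides (2.18 ± 0.37). Ifi44, an interferon-induced gene of the same antiviral group, went from 0.572 and 0.412 to 2.09 and 2.23 (2.12 ± 0.27). In Rsad2 and Ifi44 the labelled knockouts lay close together, unlike in most of the 37. Ifi35 rose by 1.34 ± 0.25, Rtp4 by 1.74 ± 0.41 and Xaf1, a pro-apoptotic factor, by 1.46 ± 0.43. Mx2, with the lowest reads of all, did not pass (1.81 ± 0.74).

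Isg15, a ubiquitin-like tag, stood at 1.70 and 1.11 against 8.03 and 5.19 (2.22 ± 0.37, edgeR adjusted p = 0.00703), with the uncertainty of its chromosome given above. Usp18, the protease that removes this tag, stood at 0.886 and 0.773 against 4.21 and 2.06 (1.91 ± 0.39). Both genes of this system thus rose. Dtx3l, a ubiquitin ligase, went from 1.63 and 1.52 to 5.96 and 3.88 (1.63 ± 0.25), and its partner Parp9 rose by 1.24 ± 0.26, while Parp14 did not pass (1.20 ± 0.39, edgeR adjusted p = 0.0658). Parp9 and Dtx3l are neighbours, as are Psmb9 and Tap1, and the library kit did not mark strand, so reads in any shared stretch cannot be assigned.

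Among the GTPases, Irgm1 (2.69 and 2.11 against 7.81 and 5.74; 1.49 ± 0.24) and Gbp2 (1.53 ± 0.43) rose, and Gbp3 and Igtp did not pass. In antigen processing, Psmb8 went from 3.30 and 2.76 to 19 and 7.85 (2.14 ± 0.40), and Tap1, which carries peptides into the endoplasmic reticulum, rose by 1.64 ± 0.33. Psmb9 gave 1.30 ± 0.44 (edgeR adjusted p = 0.0732). The chemokine Cxcl10 had the third largest log2 value of the 37 with a large error (2.39 ± 0.87, edgeR adjusted p = 0.0891), from 0.358 and 0.0804 to 1.35 and 0.976. Genes with and without an element core in their promoter did not stand apart in size: the median log2 difference was 1.89 over the 17 genes with a core, of which 12 rose, and 1.63 over the 12 without, of which 9 rose.

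**Figure D3:**
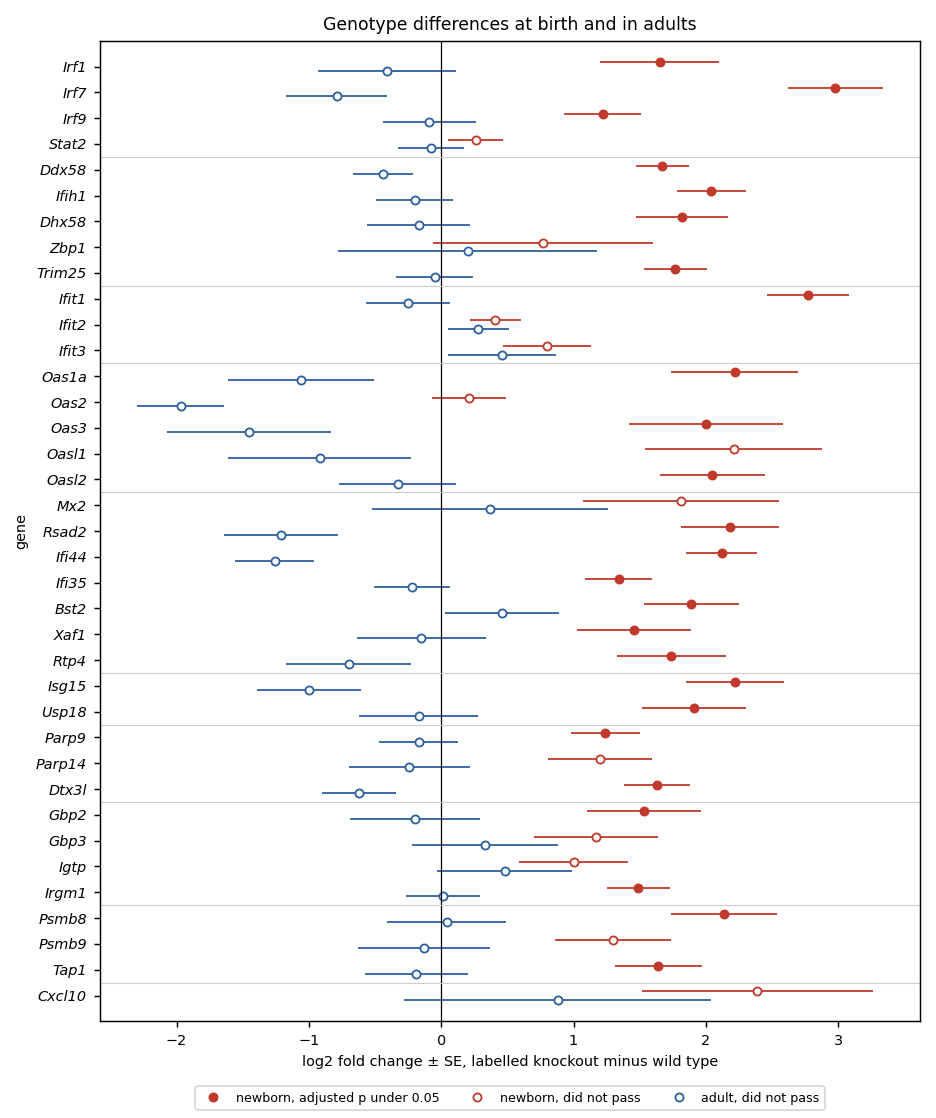
Log2 fold change (labelled knockout minus wild type, point) with its standard error (bar) for each gene, at birth (red) and in adults (blue); filled points passed edgeR's test at adjusted p under 0.05. All 37 newborn values lie above 0 and 25 are filled, whereas 27 of the 37 adult values lie below 0 and none is filled.

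The size of the newborn difference leaned on single libraries. Labelled-knockout replicate 1, the library with few lens reads, was above replicate 2 for 33 of the 37 genes (median ratio 1.52, range 0.873 to 2.83). Wild-type replicate 1 was above replicate 2 for 31. The shares of all genes in these 2 orders were not counted. Without labelled-knockout replicate 1, fewer of the 37 and fewer of all genes passed. The median of the 37 was then 1.30, against -0.04 over all genes. Without labelled-knockout replicate 2 it was 2.06, against -0.07. Leaving out a wild type took away most calls across the genome: without replicate 2, 3 of the 37 and 728 of all genes passed, and without replicate 1, 0 of the 37 and 0 of all genes passed. The medians of the 37 were 1.49 and 1.97 in those fits, and 36 and 37 of the values stayed positive.

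Several lists of cell type markers also differed at birth. Over all tested genes 14.6% rose and 9.38% fell. The macrophage and leukocyte markers rose in shares near that background, though all of their log2 values were positive (45.9% over all genes). All 8 basal keratinocyte markers rose, from a summed level of 519 and 772 in the wild types to 4780 and 4220 in the labelled knockouts. Of 9 neutrophil markers 5 rose (5.72 and 4.51 against 58.6 and 88.1), of 13 macrophage markers 3 rose (115 and 116 against 385 and 257), and of 7 markers of all leukocytes 1 rose (43.3 and 38.4 against 117 and 80.4). None of the 12 T and NK cell markers tested passed, at 14.0 and 2.57 against 7.96 and 3.36. The keratinocyte, macrophage and leukocyte markers had reads in every newborn library, while Cd8b1, Prf1, Gzma and Ncr1 of the T and NK list were at 0 reads in at least 1. Of 6 endothelial markers 5 rose (87.2 and 106 against 190 and 159), and all 7 photoreceptor markers fell (282 and 336 against 22.0 and 74.1). Without labelled-knockout replicate 1, fewer markers passed in each of these lists that had a call, as did fewer of all genes. The median log2 values were then 3.15 (keratinocyte), 3.11 (8 neutrophil markers), 1.2 (macrophage), 1.23 (leukocyte), 1.14 (endothelial) and -2.21 (photoreceptor). Over all genes the median was -0.04. The part of these cell types in the newborn difference was not tested.

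**Figure D4:**
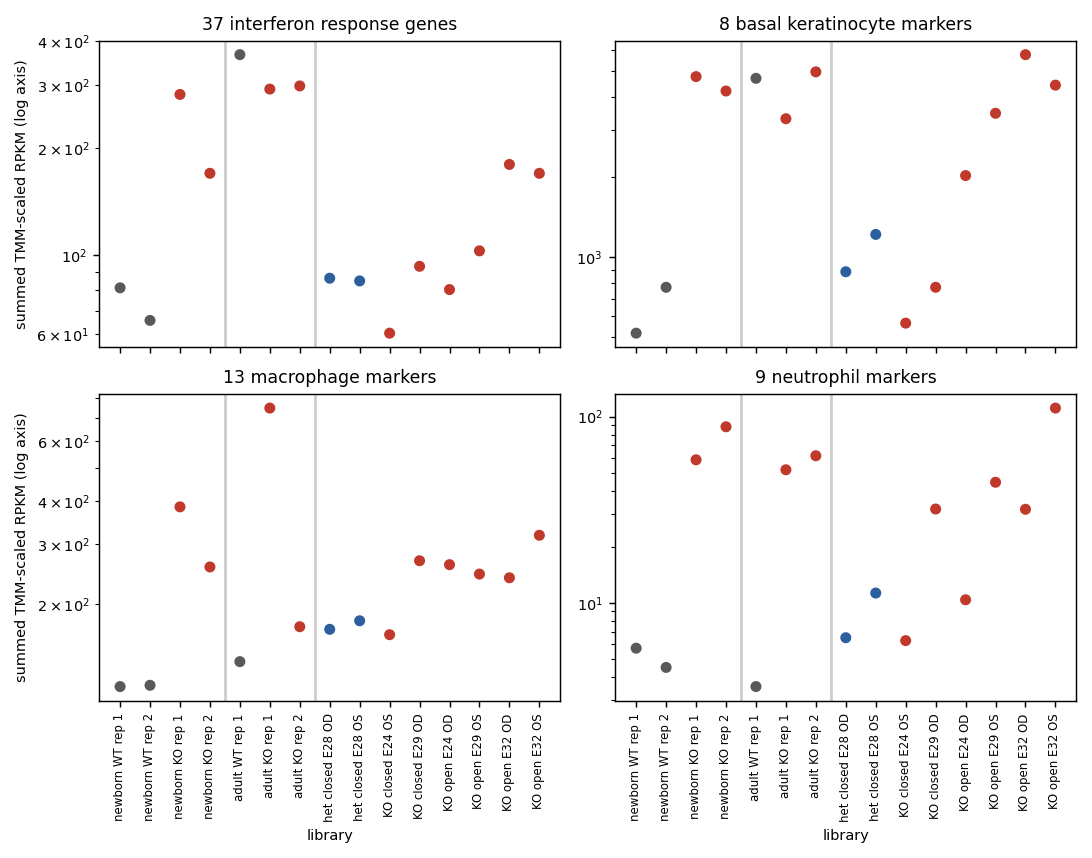
Summed TMM-scaled RPKM (log axis) in each library for the 37 interferon response genes and for the markers of basal keratinocytes, macrophages and neutrophils; grey points are wild type, red labelled knockout and blue heterozygous. The newborn labelled knockouts are above the newborn wild types in all 4 panels, and the adult wild type is highest of the 15 in the first panel but lowest in the neutrophil panel.

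The rest of the pathway was read at the same comparison. Of 9 receptors and kinases 4 rose: Il10rb (1.43 ± 0.24), Il28ra (1.97 ± 0.41), which together form the receptor of lambda interferons, Ifngr1 (1.13 ± 0.20) and Jak1 (0.67 ± 0.17). Of 14 genes of upstream sensing 7 rose, led by the kinase Ikbke (1.81 ± 0.20), the cytosolic DNA adaptor Tmem173 (2.30 ± 0.26), the Toll-like receptor adaptor Myd88 (1.85 ± 0.21) and Tlr4 (1.71 ± 0.23). Of 6 negative regulators 2 rose, Irf2 (0.94 ± 0.17) and Socs1 (1.51 ± 0.33). Of 53 further interferon-induced genes tested, out of 55 listed, 25 rose, among them Slfn2 (2.56 ± 0.26), Ifitm1 (2.03 ± 0.24), H2-T23 (2.31 ± 0.31), a non-classical MHC gene, and Eif2ak2 (1.28 ± 0.19), the kinase PKR. No gene of these 4 lists fell. Over all tested genes 14.6% rose and 9.38% fell. The median over the 53 was 1.10. Without labelled-knockout replicate 1, fewer genes of each list passed, as did fewer of all genes. The medians were then 0.6 (receptors and kinases), 0.96 (upstream sensing), 0.63 (negative regulators) and 0.73 (the 53 further genes), against -0.04 over all genes.

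The interferon genes themselves had few reads. Of 19 ligand genes listed, 7 passed the filter on low reads, and newborn wild-type replicate 1 held from 52.9% (Ifnb1) to 79.3% (Il28a) of each one's reads over the newborn and adult libraries. None of the 7 passed edgeR's newborn test, 3 had an unadjusted p under 0.05 and DESeq2 called 0; no direction is read from them. The summed level of the 19 was 11.9 TMM-scaled RPKM in newborn wild-type replicate 1, 2.12 in replicate 2 and 1.41 and 0.700 in the labelled knockouts. No other library of the 15 exceeded 0.944 apart from these newborn ones, and 5 day 3 eyes had none.

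In adults no such difference was seen. None of the 37 passed edgeR's test, as did none of all 17592 genes (0% called; 4 of the 37 and 506 of all genes had an unadjusted p under 0.05). By DESeq2, 1 of the 37 and 107 of all genes passed. The signs leaned the other way from those at birth: 27 of 37 log2 values were negative, with a median of -0.19 against 0.02 over all genes. The adult wild type was above both labelled knockouts for 23 of the 37 (31.8% of all genes). It was below both for 3, an order not counted over all genes. Only 1 wild-type library exists, which is assumed to vary like the other groups.

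The 5 genes with the smallest p in adults were all lower under the knockout label. Oas2 was at 2.34 in the wild type and at 0.513 and 0.659 in the labelled knockouts (-1.97 ± 0.33, edgeR adjusted p = 0.298; DESeq2 adjusted p = 0.00603). Ifi44 was at 4.26 against 1.63 and 1.85 (-1.26 ± 0.30), and Rsad2 at 1.03 against 0.581 and 0.293 (-1.21 ± 0.43). For all 3 the wild type was the highest of the adult libraries. Isg15 was at 19.1 against 8.24 and 10.5 (-1.0 ± 0.39), and Oas3 at 2.99 against 0.569 and 1.58 (-1.45 ± 0.62). Bst2, the most abundant of the genes, was at 17.5 against 31.8 and 15.8, with the 2 labelled knockouts on either side of the wild type. Without adult labelled-knockout replicate 2, the Oas2 value was -2.17 ± 0.40. The median of the 37 was then -0.17 with 12 positive values, against 0.01 over all genes. Without replicate 1, the library with few corneal reads, the median of the 37 was -0.24 with 6 positive values, against 0 over all genes.

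Leukocyte markers did not go with the interferon genes here. The macrophage sum was 136 in the adult wild type and 748 and 172 in the labelled knockouts, the neutrophil sum 3.56 against 51.8 and 61.6, and the sum of all leukocyte markers 24.3 against 113 and 39.1. Basal keratinocyte markers gave 4710 against 3320 and 4980. None of these markers passed edgeR's adult test, while DESeq2 called 3 of the 9 neutrophil markers higher under the knockout label and none of the others; their part in the values was not tested.

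The change between ages in the genotype difference was tested directly, as an interaction term. It was negative for all 37 genes (median -1.83, against 0.08 over all genes), and 8 passed, all lower in adults than at birth, against 1.8% of all tested genes. The 8 were Irf7 (-3.77 ± 0.52, edgeR adjusted p = 0.0348), Ifi44 (-3.39 ± 0.40), Rsad2 (-3.39 ± 0.56), Isg15 (-3.23 ± 0.53), Ifit1 (-3.02 ± 0.44), Dtx3l (-2.25 ± 0.37), Ifih1 (-2.24 ± 0.38) and Ddx58 (-2.11 ± 0.30). Oas2 (-2.18 ± 0.44, edgeR adjusted p = 0.0522) and Trim25 (-1.82 ± 0.37, edgeR adjusted p = 0.0514) lay just outside. These calls were the least stable of the set: without either newborn wild type 0 of the 37 passed, and without newborn labelled-knockout replicate 1, 2 did. The median of the 37 was -1.33 without newborn labelled-knockout replicate 1 and -2.26 without its replicate 2, against 0.05 and 0.07 over all genes. It was -1.78 without newborn wild-type replicate 2 (0 over all genes), with 1 positive value, and -2.2 without newborn wild-type replicate 1 (0.01). It was -1.97 without adult labelled-knockout replicate 1 (0.06 over all genes) and -2.06 without adult replicate 2 (0.02). Basal keratinocyte markers moved the same way: all 8 values were negative (median -3.43), 4 passed edgeR's test and 8 passed by DESeq2; their part in the interaction was not tested.

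In wild-type eyes the genes were higher in the adult than at birth. Of the 37, 27 rose and none fell, against 18% of all genes that rose, and 36 of the log2 values were positive (median 1.89, against -0.08 over all genes). This comparison shares its 1 adult library with the adult genotype comparison and the interaction, and its newborn libraries with the newborn comparison and the interaction. Oasl1 had the largest value, from 1.25 and 0.262 TMM-scaled RPKM to 24.7 (5.01 ± 0.76, edgeR adjusted p = 0.00306). Irf7 rose to 32.4 (4.15 ± 0.40) and Ifit1 to 6.23 (4.14 ± 0.35, edgeR adjusted p = 0.000419). Isg15 rose to 19.1 (3.73 ± 0.41), Oasl2 to 13.1 (3.51 ± 0.45) and Psmb8 to 34.2 (3.46 ± 0.46). For these 6 genes the adult level was several times each newborn wild-type level.

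Other members followed by role. Ifih1 rose by 3.31 ± 0.29, Gbp2 by 3.12 ± 0.49, Irf1 by 3.09 ± 0.52 and Ifi44 by 3.08 ± 0.31. Dtx3l (2.38 ± 0.28), Ddx58 (2.03 ± 0.23), Ifi35 (1.99 ± 0.28), Parp9 (1.89 ± 0.30) and Irgm1 (1.87 ± 0.28) rose less. All 3 antigen-processing genes, both genes of the Isg15 system and all 3 of the Parp and Dtx3l group passed. The 10 that did not pass include Stat2, Ifit2, Ifit3, Igtp and Cxcl10, the last with a negative value (-0.35 ± 1.18). Of the further interferon-induced genes 25 of 53 rose, with Ifitm1 (3.32 ± 0.28), Cd274 (4.95 ± 0.44), the checkpoint ligand PD-L1, Sp100 (2.96 ± 0.37) and Tor3a (1.71 ± 0.24) at the smallest p. Without newborn wild-type replicate 2, fewer of the 37 and fewer of all genes rose. The median of the 37 was then 1.75, against 0 over all genes. Without newborn wild-type replicate 1 it was 2.41, against 0.04. Of the 8 basal keratinocyte markers 7 rose with age, and of the 7 leukocyte and 13 macrophage markers none did; their part was not tested.

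Under the knockout label the ages lay closer. Of the 37, 6 rose with age (19.3% of all genes did) and 3 fell (20.4%), shares that do not exceed the background, with a median of 0.26 against -0.01. The 6 were Ifih1 (1.95 and 1.44 at birth, 3.32 and 3.80 in adults; 1.07 ± 0.24), Ifit1 (1.12 ± 0.27), Psmb8 (1.36 ± 0.38), Gbp2 (1.39 ± 0.41), Oasl1 (1.89 ± 0.60) and Oasl2 (1.13 ± 0.37). Rsad2 fell, from 2.20 and 2.25 to 0.581 and 0.293 (-2.34 ± 0.37, edgeR adjusted p = 0.00269). Oas1a (-1.60 ± 0.46) and Oas2 (-0.96 ± 0.29) fell as well. The oligoadenylate synthetases therefore moved both ways with age in these eyes. The counts fell to 3 and 1 without either newborn wild type, to 2 risen without newborn labelled-knockout replicate 2, and to 1 fallen without newborn labelled-knockout replicate 1. Omitting replicate 1 of the adult labelled knockouts left 5 risen and 2 fallen, with a median of 0.27.

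At day 3 open and closed eyes of the same mouse could be compared in E24 and E29. Of the 36 genes tested (Mx2 had too few reads), none passed edgeR's test with the mouse as a block, where 0.457% of all 15754 genes rose. Of the 36, 8 had an unadjusted p under 0.05, as did 985 of all genes. Of the log2 values 27 were positive, against 52.5% of all genes, with a median of 0.50 against 0.02. The open eye was above the closed eye in both mice for 22 of the 36, an order held by 28.6% of all tested genes. By DESeq2, 2 of the 36 rose and none fell, where 346 of all genes rose and 23 fell.

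Irf7 was at 3.51 in the open and 1.61 in the closed eye of E24, and at 4.98 and 0.999 in those of E29 (1.73 ± 0.43, edgeR adjusted p = 0.256). Trim25 was at 10.1 and 7.29 in E24 and at 8.64 and 5.36 in E29 (0.60 ± 0.15, edgeR adjusted p = 0.239). Oas1a was at 0.985 and 0.436 in E24 and at 0.970 and 0.133 in E29 (1.95 ± 0.62, edgeR adjusted p = 0.49). In each of these 3 the open eye was the higher one in both mice. Zbp1 was at 0.625 and 0.0822 in E24 and at 0.438 and 0.0419 in E29 (3.10 ± 0.98), its closed eyes holding only 4 and 2 reads, and Usp18 at 0.849 and 0.300 and at 0.790 and 0.211 (1.71 ± 0.61). Cxcl10 did the opposite in both mice: 0.247 against 0.499 in E24 and 5.55 against 9.23 in E29, the latter the highest of all 15 libraries (-0.82 ± 1.03). Isg15 was higher in the open eye of E24 (1.10 against 0.465) and lower in that of E29 (0.554 against 1.02).

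Basal keratinocyte markers summed to 2030 and 3480 in the open eyes of E24 and E29 and to 566 and 772 in their closed eyes, and 4 of 8 passed. The macrophage sums were 261 and 245 against 163 and 268, and the sums of all leukocyte markers 82.0 and 93.5 against 51.1 and 60.4, with no gene passing. Their part in the eyelid values was not tested. Without the mouse block, so that E32 and E28 entered the contrast directly, 3 of the 36 passed. Of all 15159 genes tested in that fit, 370 rose and 30 fell.

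**Figure D5:**
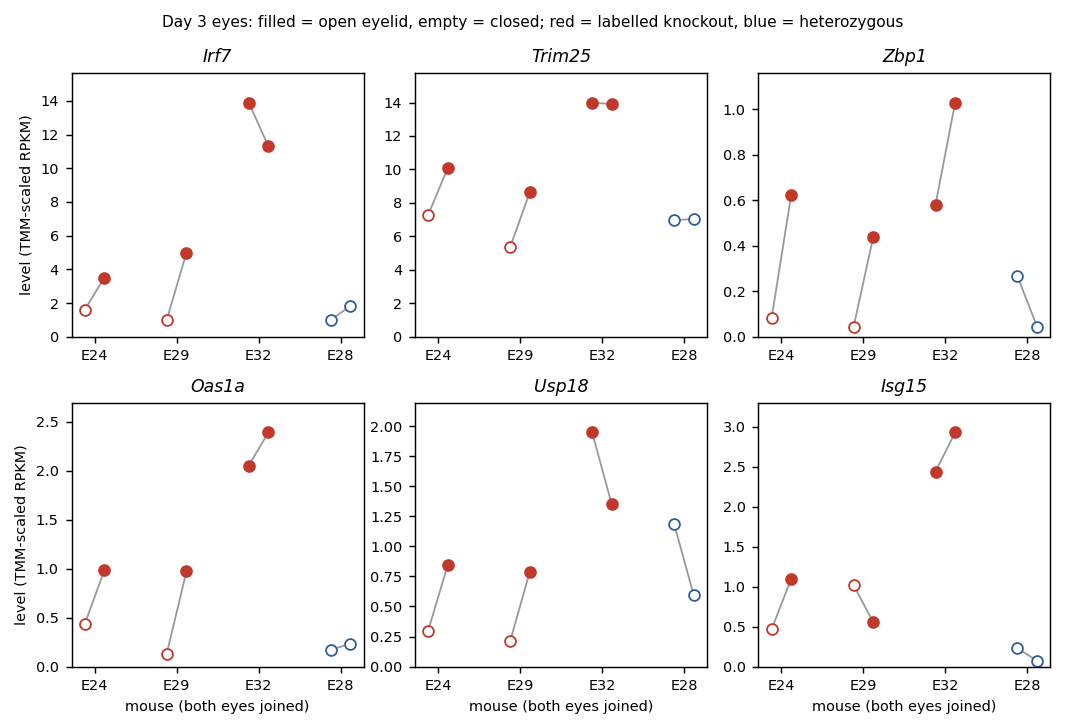
Level (TMM-scaled RPKM, axis from 0) of 6 genes in the 8 day 3 eyes, by mouse, with the eyes of a mouse joined by a line; filled points are open eyes, empty points closed eyes, red labelled knockout and blue heterozygous. Both eyes of E32 are the highest for Irf7, Trim25, Oas1a, Usp18 and Isg15, but not for Zbp1.

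Among the day 3 eyes, the 2 open eyes of E32 had the highest medians over the genes. Both eyes of E32 lay above the other 6 eyes for 21 of the 36 tested genes, an order held by 15% of all genes. An eye of E32 was the highest of the 8 for 29 of the 37, an order not counted over all genes. Irf7 was at 13.9 and 11.3 in E32 and at most 4.98 elsewhere. Bst2 was at 32.5 and 40.1 against at most 22.4, and Oas1a at 2.05 and 2.39 against at most 0.985. Against the newborn wild types, the median over the 37 genes (log2 of TMM-scaled RPKM with 0.1 added) was 0.90 and 0.95 in the eyes of E32. It was 0.01 and 0.06 in the open eyes of E24 and E29, and between -0.43 and -0.25 in the 4 closed eyes. The open eyes of E24 and E29 thus lay between the closed eyes and those of E32, and nearer to the closed eyes. E32 has no closed eye, so mouse and eyelid cannot be told apart in it, and no test was made of a mouse chosen by its values. Basal keratinocyte markers were at 5780 and 4440 in E32, the highest of the day 3 eyes, and macrophage markers at 239 and 318. Photoreceptor markers were at 86.2 and 14.2 in E32, the lowest of the day 3 eyes, against 290 and 153 in the open eyes of E24 and E29 and between 168 and 329 in the closed eyes. The eyes of E32 differed from each other in B cell markers (104 and 9.86) and neutrophil markers (31.8 and 111). The part of these markers in the values was not tested.

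Labelled-knockout and heterozygous mice at day 3 were compared with the reads of both eyes of a mouse summed, 3 mice against 1. None of the 37 passed edgeR's test and neither did any of all 16453 genes (0% called; 0 of the 37 and 273 of all genes had an unadjusted p under 0.05, and DESeq2 called 0 and 96). Of the log2 values 32 were positive, with a median of 0.67 against 0.03. The 5 smallest p belonged to Isg15 (3.18 ± 1.39), Oas1a (2.61 ± 1.22), Parp9 (1.10 ± 0.57), Gbp3 (1.55 ± 0.81) and Irf7 (2.23 ± 1.22), each with an edgeR adjusted p of 0.999. Isg15 was at 0.228 and 0.0713 in the eyes of E28, at 1.10 and 0.465 in those of E24, at 0.554 and 1.02 in those of E29 and at 2.44 and 2.93 in those of E32. The heterozygous eyes were the lowest of the 8. Without E32 the median was 0.27, and with closed eyes alone it was -0.03, with 15 of 35 values positive, so that the direction over the genes did not hold among closed eyes.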

How the data were processed

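Poly(A)-selected RNA of 15 eye libraries was sequenced from unstranded ligated libraries, per the labels' protocols. The authors deposited, per library, read counts and RPKM values for 24373 transcripts on mouse build mm8; the submitters' processing notes name CASAVA 1.8, Bowtie 0.12.9, TopHat2 2.0.11 and SAMtools, with no roles. Whether counting used strand is not given in the sources used here.

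The deposited counts were used, 1 transcript per symbol (highest mean count; 2673 of 20418 symbols had several). Levels were recomputed as TMM-scaled RPKM, because the library totals implied by the authors' RPKM values were not uniform: counted reads came to 0.756 of that total in newborn wild-type replicate 1 and to between 0.995 and 1.12 in the others. Tests were edgeR 4.0.16 quasi-likelihood fits (R 4.3.3; filterByExpr; TMM; Benjamini-Hochberg over all genes; threshold 0.05), with SE taken as the absolute log2 fold change over the square root of F. The 7 newborn and adult libraries were fitted together with a mean per group; the 8 day 3 eyes with the mouse as a block; and the 4 day 3 mice with both eyes summed. Scripts were tested on simulated counts.

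Alternatives were DESeq2 1.42.0, other scalings and filters, every transcript, each library left out, and replicate blocks. The 37 genes, their roles, and the pathway and marker lists were chosen with earlier results of these data known. Named genes were the most abundant of each role and those with the smallest p in each comparison (up to 15 that passed, else 5), and for other lists up to 4. Shared replicate numbers did not pair the libraries (correlation of deviations 0.0246 in newborns, 0.121 between newborn and adult labelled knockouts). Promoters came from RefSeq (GRCm38.p6) and were matched by symbol; no coordinate of the authors' build is printed.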

Additional observations from a re-analysis of the deposited data

Results flagged for a closer look

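For 8 genes the genotype difference itself differed between adults and newborns by the interaction test (edgeR adjusted p under 0.05, adult minus newborn, log2). Irf7 stood at -3.77, Ifi44 at -3.39, Rsad2 at -3.39, Isg15 at -3.23 and Ifit1 at -3.02. Dtx3l stood at -2.25, Ifih1 at -2.24 and Ddx58 at -2.11. In each of the 8 the newborn labelled knockouts were both above the newborn wild types, and the adult labelled knockouts were both below the 1 adult wild type. None of the 8 passed without either newborn wild-type library.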

How the results depend on the processing

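Limits come first: each group holds 1 to 4 libraries, 1 adult wild type and 1 heterozygous mouse, and the fits assume that a lone sample varies like the others. The median of the 37 kept its sign in every alternative run, except at day 3 between genotypes with closed eyes only (-0.03), where Irf7 also turned (-0.04 against 2.23); the cause was not tested.

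Adult genotype calls over all genes were 0 as reported, 33 with the authors' library totals, 13 with no filter and 107 by DESeq2, which called 1 of the 37 lower. DESeq2 called 22 of the 37 lower and 2131 of all genes (492 as reported) in the interaction, 2 of the 37 and 369 of all genes (81 as reported) between eyelid states, and 96 of all genes between day 3 genotypes. With a mean of at least 5 RPKM, where 17 of the 37 were tested in newborn and adult eyes, 12 rose at birth, 3 were lower in the interaction, 15 rose with age in wild types, and 2 rose and 0 fell with age under the knockout label; fewer genes were tested there. The authors' totals moved the median newborn difference of all genes from -0.07 to 0.08 and the wild-type age difference from -0.08 to 0.02. They moved the share of newborn calls that were higher from 61% to 71.7%, and of interaction calls from 35.6% to 21.8%.

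Without 1 library at a time, newborn calls ran from 0 to 5116 (0 to 30 of the 37), adult calls from 0 to 205 (0 to 1 of the 37, lower) and interaction calls from 0 to 1613 (0 to 21 of the 37). Wild-type age calls ran from 3460 to 6424 (16 to 31 of the 37), and under the knockout label 2 to 8 of the 37 rose and 1 to 3 fell with age. Without 1 mouse at a time, eyelid calls ran from 0 to 129 and day 3 genotype calls from 0 to 6, with 0 of the interferon genes called. With the newborn replicate number as a replicate block, 31 of the 37 and 5271 genes were called, against 22 and 5426 in the newborn libraries alone; under the knockout label 5 rose and 2 fell with age. With no replicate block for the mouse, 3 of the 36 and 400 of all genes were called between eyelid states; with E24 and E29 alone, 210 genes and none of the 36. The adult genotype, interaction and wild-type age fits could not be made without the adult wild type.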
